A study of Mus musculus with 13 samples.

Results

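The 10 genes of the BMP and hepcidin axis described here were followed in whole mouse liver: the ligand genes Bmp2, Bmp5, Bmp6, Bmp10 and Gdf2 (which encodes BMP9), the hepcidin genes Hamp and Hamp2, and Id1, Smad6 and Smad7, genes that respond to BMP signalling. They were picked by symbol, and all 10 had a row of their own among the 22048 genes of the count table and enough reads to be tested. The study prepared stranded mRNA libraries from 13 livers. Controls numbered 6, of which replicates 1, 2 and 6 were male and the other 3 female. Hepatic stellate cells, the vitamin A-storing pericytes of the sinusoids, had been depleted in 4 livers, 3 female and 1 male (replicate 3). A further 3 livers, from 2 males (replicates 1 and 2) and 1 female (replicate 3), were collected 72 h after partial hepatectomy. In this operation surgeons remove some of the liver lobes. No stellate depletion is named in the labels of these 3 livers. The labels name no depleting agent, strain or age, and do not say whether control animals received a vehicle or a sham operation. Where samples came from separate animals is not spelled out in them, so p-values measure the spread between these 13 samples.

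BMP ligands bind pairs of type I and type II receptors, which phosphorylate SMAD1, SMAD5 and SMAD9. These enter the nucleus with SMAD4 and switch on target genes, among them Id1 and the inhibitory Smad6 and Smad7, which feed back on the pathway. In hepatocytes the pathway also drives Hamp, whose product hepcidin blocks iron export by binding ferroportin. BMP2 and BMP6 of sinusoidal endothelial cells are the ligands best known for this control of hepcidin, whereas BMP9 and BMP10 circulate and act mainly on endothelium through the receptor ALK1. Inflammatory cytokines raise Hamp by a separate route through STAT3.

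The hepcidin promoters are printed because several results below turn on Hamp and Hamp2, which are near-copies of each other. Both lie on the minus strand of chromosome 7, Hamp at chr7:30942368-30944032 and Hamp2 at chr7:30922372-30924681 (GRCm38). The 250 bases before each RefSeq start (GRCm38.p6) are chr7:30944030-30944279 for Hamp and chr7:30924182-30924431 for Hamp2. The Hamp2 window lies within an intron of a longer Hamp2 transcript of GENCODE. Capitals mark the hexamer GGCGCC, the core of a BMP-responsive element, with the hexamer aligned to it in Hamp2, and TTCNNNGAA, the STAT recognition core, where N is any base.

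Hamp: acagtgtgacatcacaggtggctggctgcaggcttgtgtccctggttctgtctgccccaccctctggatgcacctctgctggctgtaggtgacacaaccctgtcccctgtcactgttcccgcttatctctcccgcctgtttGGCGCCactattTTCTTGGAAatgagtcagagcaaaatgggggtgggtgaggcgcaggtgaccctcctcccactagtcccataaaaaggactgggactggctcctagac
Hamp2: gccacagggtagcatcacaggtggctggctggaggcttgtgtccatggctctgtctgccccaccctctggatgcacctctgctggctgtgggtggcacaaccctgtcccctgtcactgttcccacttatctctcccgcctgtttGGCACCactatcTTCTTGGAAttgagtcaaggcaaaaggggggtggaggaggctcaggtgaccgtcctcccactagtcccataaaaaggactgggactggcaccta

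The windows were 91.9% identical over their alignment. GGCGCC began 109 bases before the Hamp start. At the aligned place, 106 bases before the Hamp2 start, Hamp2 had GGCACC, the substitution G4A counted from 1 at the 5′ end of the hexamer. TTCTTGGAA stood in both windows, 97 bases before the start of Hamp and 94 before that of Hamp2. Both motifs read alike on either strand, and of the 32851 RefSeq mouse promoter windows of this length, 9.59% held GGCGCC and 7.02% held TTCNNNGAA. Promoter entries were matched for 7 of the 10 genes, and among the other 5 none held either motif. These matches describe letters and not binding sites.

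Total counts ran from 35360991 to 51008737 per library, so that 3 counts corresponded to 0.0588 to 0.0848 CPM (reads of a gene relative to library size). Levels below are CPM after edgeR's TMM scaling. Fold changes are log2 values from edgeR's quasi-likelihood test with a sex term, with p-values adjusted by Benjamini-Hochberg over 13831 genes. Standard errors (SE) were derived from that test, as the absolute log2 fold change divided by the square root of the F statistic. A gene is called changed at an adjusted p under 0.05. All 15 stellate cell markers were called lower in the depleted livers (median log2 fold change -5.47). Their summed level was 338 to 858 CPM in control livers, 12.3, 12, 15.9 and 79.8 CPM in depleted replicates 1 to 4, and 367 to 690 CPM after hepatectomy. Lrat, the defining stellate gene, was at 0.193, 0.134, 0.14 and 2.54 CPM in the depleted livers and at 7.77 to 67.4 CPM in control livers, so depleted replicate 4 kept the most stellate transcripts. Control replicate 6 and hepatectomy replicate 2 stood apart by low sinusoidal endothelial markers, whose sum was 162 and 160 CPM in these livers, against 527 to 801 CPM in the other controls and 398 and 497 CPM in the other hepatectomised livers. The summed neutrophil and monocyte markers were 2.49 to 10 CPM in controls, 264 to 645 CPM with depletion and 22.2 to 37.4 CPM after hepatectomy. The 10 hepatocyte markers gave no call in either comparison with control, with a median log2 fold change of -0.13 in the depleted livers and 0.43 after hepatectomy. Alb, which encodes albumin, ranged from 39689 to 143526 CPM over the 13 livers.

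In the stellate-depleted livers, 5 of the 10 genes were called changed against control, all lower: Bmp5, Bmp10, Gdf2, Hamp2 and Smad6. The share called over all genes was 33.9%, with 15.0% called lower and 18.9% called higher. All 10 estimates were negative, with a median of -1.35 against -0.03 over all genes. The other 5 genes, Bmp2, Bmp6, Hamp, Id1 and Smad7, did not pass the test. In a bulk tissue sample, fewer cells of a type and less RNA per cell cannot be told apart.

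**Figure D1:**
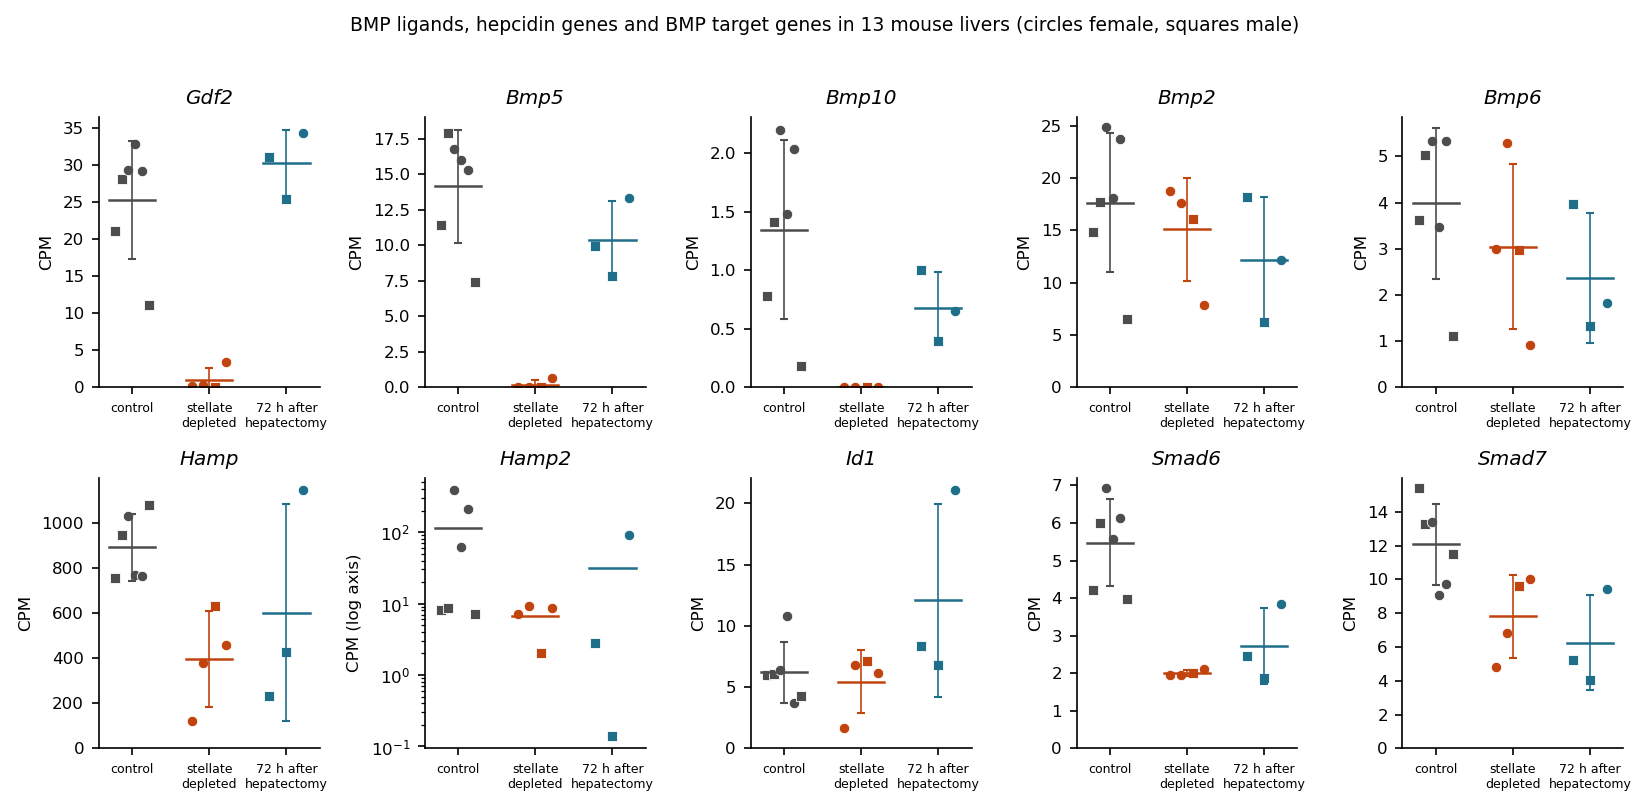
TMM-scaled CPM of the 10 genes in each of the 13 livers (circles female, squares male), with the group mean as a bar and the SD as an error line, cut at 0 and left out for Hamp2, whose axis is logarithmic. Gdf2, Bmp5 and Bmp10 lay near 0 in all 4 depleted livers, while Bmp2 and Bmp6 overlapped between the 3 groups.

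The 3 ligand genes Gdf2, Bmp5 and Bmp10 nearly disappeared with the stellate cells. Gdf2, at chr14:33941039-33947198 (GRCm38, as for all positions here), encodes BMP9, a circulating ligand. Its control levels were 21.1, 28.2, 29.3, 32.8, 29.2 and 11.1 CPM, and the depleted livers held 0.107, 0.336, 0.0175 and 3.39 CPM. No depleted liver reached the lowest control, and the ratio of group means was 26.3 (25.3 ± 7.94 CPM, SD, n = 6, against 0.962 ± 1.62 CPM, SD, n = 4). The fitted log2 fold change was -5.12 ± 0.92 (SE; edgeR adjusted p = 0.00114). Leaving out depleted replicate 4 moved it to -7.54.

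Bmp5, at chr9:75775364-75900310, encodes a ligand of the BMP5, BMP6 and BMP7 subfamily. It was at 11.4, 17.9, 16.8, 16, 15.3 and 7.38 CPM in control livers. Depleted replicates 1 to 3 had 0 counts, and replicate 4 had 30 counts, or 0.668 CPM. The groups did not overlap, and the log2 fold change was -6.68 ± 0.94 (SE; edgeR adjusted p = 0.000228). Without depleted replicate 4, no Bmp5 count remained in the depleted group and the fit gave -12.25, a value set by the prior count.

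Bmp10, at chr6:87428994-87437677, encodes a ligand closely related to BMP9. Control livers were at 0.777, 1.41, 2.2, 1.48, 2.04 and 0.18 CPM (29, 57, 93, 66, 87 and 6 counts). No read was counted for it in any of the 4 depleted livers. Set against 3 counts over the depleted group, 0.0155 CPM, it was at least 86.9-fold lower than the control mean of 1.35 ± 0.762 CPM (SD, n = 6). The edgeR adjusted p was 0.000211. The lowest control, replicate 6, had only 6 reads, and without it the adjusted p was 5.6e-05.

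Depleted replicate 4 held the most Gdf2 and Bmp5 transcripts and the highest sum of stellate markers. As a percent of the control mean, the summed stellate markers stood at 1.76%, 1.72%, 2.27% and 11.4% in depleted replicates 1 to 4. Gdf2 stood at 0.424%, 1.33%, 0.0691% and 13.4% in the same livers, and Bmp5 at 0%, 0%, 0% and 4.73%. Bmp10 stood at 0% in all 4. Bmp2 and Bmp6 were instead lowest in replicate 4, at 44.7% and 22.9%.

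The endothelial ligand genes Bmp2 and Bmp6 were not called in the depleted livers. Bmp2, at chr2:133552159-133562885, was at 14.8, 17.7, 24.9, 18.1, 23.7 and 6.57 CPM in control livers and at 18.8, 17.6, 16.1 and 7.89 CPM in depleted livers. All depleted livers lay within the control range, and the fitted difference was -0.26 ± 0.37 (SE; edgeR adjusted p = 0.623). Bmp6, at chr13:38345107-38500302, was at 3.62, 5.02, 5.34, 3.48, 5.33 and 1.11 CPM in control livers and at 3, 5.29, 2.97 and 0.913 CPM in depleted livers. Its groups overlapped except for depleted replicate 4, and its log2 fold change was -0.42 ± 0.51 (SE; edgeR adjusted p = 0.567).

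The lowest livers for Bmp2 and Bmp6 were those with the fewest endothelial transcripts in their group. Control replicate 6, hepatectomy replicate 2 and depleted replicate 4 gave 6.57, 6.2 and 7.89 CPM of Bmp2, each the lowest of its group. Their summed endothelial markers of 162, 160 and 646 CPM were also the lowest of their groups. The other depleted livers held 973 to 1041 CPM of these markers, above every control. Of the 14 endothelial markers, 2 were called higher in the depleted livers and none lower (median log2 fold change 0.38). The shares over all genes were 18.9% and 15.0%. The part of endothelial RNA content in the ligand levels was not tested.

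**Figure D2:**
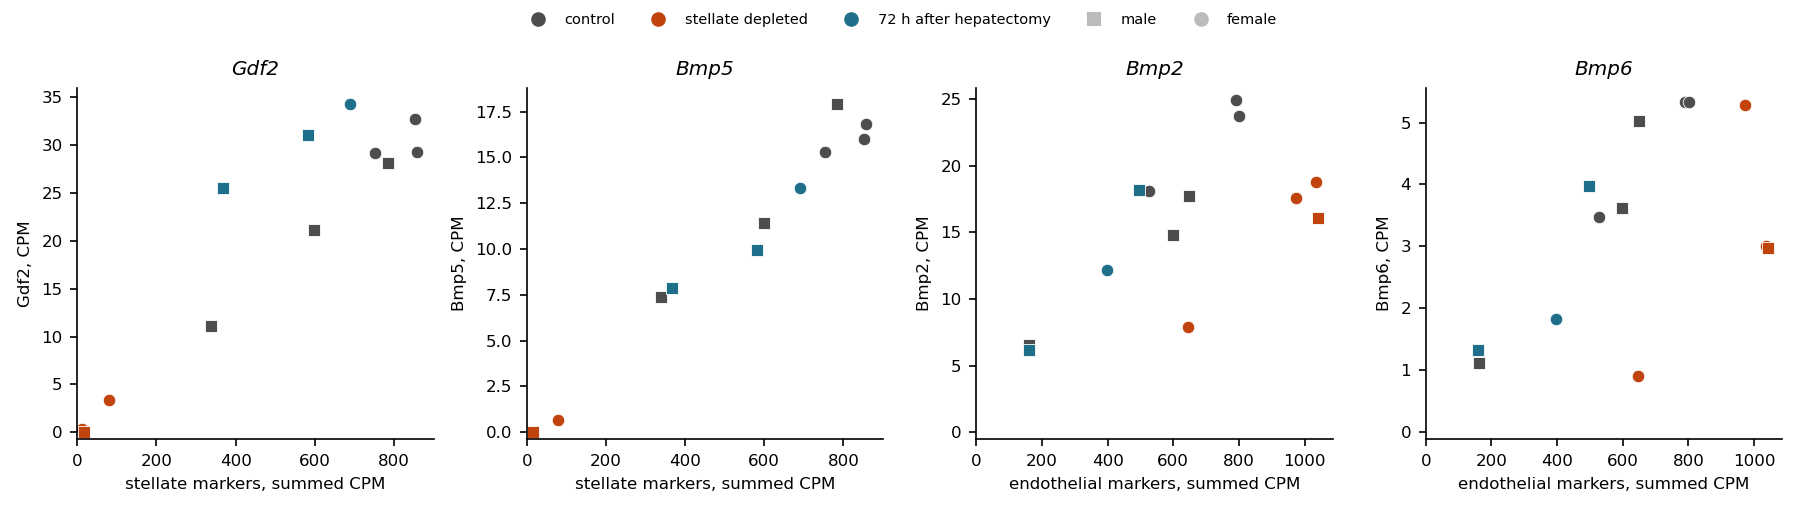
CPM of Gdf2 and Bmp5 against the summed CPM of 15 stellate markers, and of Bmp2 and Bmp6 against the summed CPM of 14 sinusoidal endothelial markers, 1 point per liver (colours for group, circles female, squares male). Depleted livers sit at or near the origin in the first pair of panels, and their Bmp2 and Bmp6 levels overlap those of the controls in the second pair.

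Divided by gene length, the ligand genes had a fixed order in control livers. Gdf2 led at 8.46 ± 2.66 CPM per kb (SD, n = 6), followed by Bmp2 at 4.96 ± 1.87, Bmp5 at 3.51 ± 0.987, Bmp6 at 1.65 ± 0.678 and Bmp10 at 1.02 ± 0.579 CPM per kb. Each gene stood above the next in 6 of 6 control livers. In depleted livers Bmp2 led at 4.25 ± 1.39 CPM per kb (SD, n = 4), and Bmp6 came next at 1.26 ± 0.741. Gdf2, at 0.322 ± 0.543 CPM per kb (0.00585 to 1.13), was below Bmp6 in 3 of 4 depleted livers. The hepatectomised livers had the same order of means as the controls, with Gdf2 at 10.2 ± 1.49 CPM per kb (SD, n = 3), although Bmp2 exceeded Bmp5 in only 2 of 3 livers. Summed over genes, Bmp5, Bmp10 and Gdf2 gave 40.8 ± 12.4 CPM in controls, 1.13 ± 1.95 CPM with depletion and 41.4 ± 7.27 CPM after hepatectomy. Bmp2 and Bmp6 together gave 21.6 ± 8.18, 18.1 ± 6.43 and 14.6 ± 7.35 CPM in the same order.

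Of 9 further BMP and GDF ligand genes, 5 were tested, and 3 were called lower and none higher in the depleted livers (median -1.35). Among all genes 15.0% were called lower. Gdf10 fell by 4.11 on the log2 scale (edgeR adjusted p = 0.0103), Gdf6 by 3.02 (0.00759) and Bmp7 by 1.35 (0.0169). Bmp4 was not called at -0.36 ± 0.28 (SE). Without depleted replicate 4, the values for Gdf10 and Gdf6 moved to -9.00 and -4.67. Without depleted replicate 3, Bmp7 was at -0.88 and was not called. In females only (3 depleted and 3 control livers), none of the 3 was called, with Gdf10 at -3.60 (adjusted p = 0.108), Gdf6 at -2.52 (0.098) and Bmp7 at -0.92 (0.147).

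Among the receptor genes, the largest called difference was that of Acvrl1, which encodes ALK1, the type I receptor of BMP9 and BMP10. It was at 3.97, 2.45, 3.49, 3.51, 3.6 and 0.78 CPM in control livers and at 17.4, 16.3, 22 and 25.3 CPM in depleted livers. All depleted livers lay above all controls, and the log2 fold change was 2.72 ± 0.34 (SE; edgeR adjusted p = 7.95e-05). Eng, which encodes the endothelial co-receptor endoglin, was at -0.43 ± 0.34 and was not called. It was called in 2 of 22 alternative fits, 1 of them without control replicate 6 (-0.58). Of 11 receptor and co-receptor genes tested, 2 were called higher (Acvrl1 and Rgmb, 0.93) and 2 lower (Neo1, -0.60, and Acvr2a, -0.57), with a median of -0.24. These 4 of 11 stand beside 33.9% called over all genes. Bmpr1a (-0.24 ± 0.15), Acvr1 (-0.16 ± 0.17), Bmpr2 (-0.34 ± 0.19) and the hepcidin co-receptor gene Hjv (0.27 ± 0.24) did not pass the test. The call of Rgmb was lost in 15 of 22 alternative fits, 10 of which left out 1 liver each. That of Neo1 was lost without control replicate 5 (-0.57) or depleted replicate 3 (-0.55), and that of Acvr2a without depleted replicate 3 (-0.53). In females only, Neo1 (-0.57) and Acvr2a (-0.53) were not called either.

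Among the SMAD genes that carry the signal, Smad5 (-0.45 ± 0.12, SE; edgeR adjusted p = 0.0133) and Smad4 (-0.46 ± 0.14; 0.0231) were called lower. Smad1 was at 0.25 ± 0.22 and Smad9 at -0.86 ± 0.33, and neither was called. The Smad5 call did not pass without depleted replicate 3 (-0.42), and the Smad4 call without control replicate 3 (-0.44), control replicate 5 (-0.43) or depleted replicate 3 (-0.50). Neither was called in females only (Smad5 -0.44, adjusted p = 0.0962, and Smad4 -0.53, 0.08), nor was Smad4 with library size alone (-0.36; 0.0695).

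Of 16 tested genes for BMP antagonists, 5 were called higher and 5 lower in the depleted livers (median -0.08). The shares over all genes were 18.9% and 15.0%. Bmper, which encodes a secreted BMP-binding protein, was at 0.18 to 1.13 CPM in control livers and at 13.2, 17, 17.3 and 11 CPM in depleted livers. It rose by 4.47 ± 0.46 on the log2 scale (SE; edgeR adjusted p = 2.38e-05). Fstl3, a follistatin-like gene, changed by 3.57 ± 0.60 but reached 6.18 CPM in depleted replicate 3 and 0.278 to 1.29 CPM in the other 3. Erfe, which encodes the hormone erythroferrone of red cell precursors, was at 0.728, 0.0224, 0 and 1 CPM in the depleted livers and had 3 counts in a single control liver. Its fitted 4.33 ± 1.32 was not called without control replicate 3 (3.91), 4 (6.50) or 5 (3.91). Among the genes called lower were Chrdl1 (-3.71 ± 0.68), Fstl1 (-2.00 ± 0.51) and the pseudoreceptor gene Bambi (-1.12 ± 0.24), of which Fstl1 was not called without depleted replicate 3 (-1.65). In females only, Fstl1 (-1.50; adjusted p = 0.117) and Fstl3 (2.30; 0.0579) were not called.

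**Figure D3:**
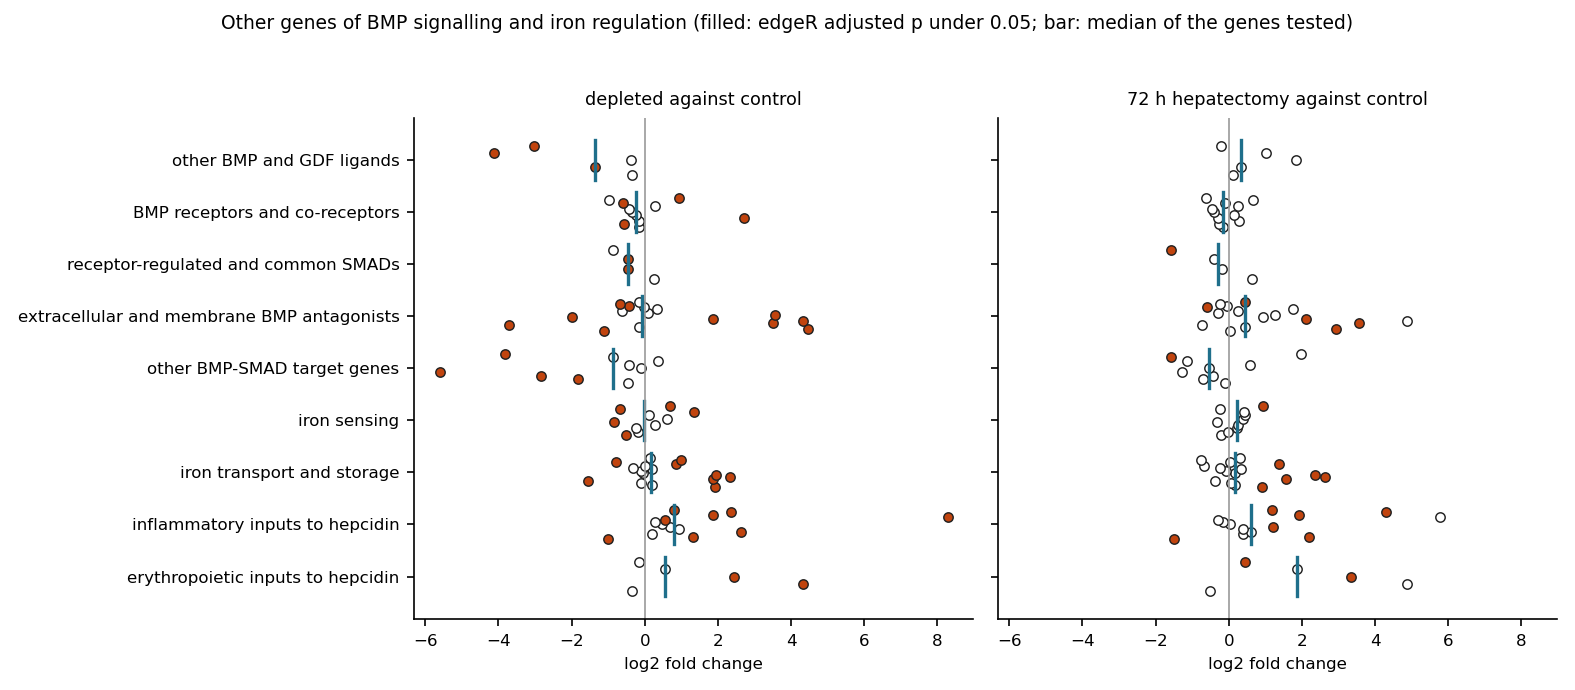
Log2 fold changes of the tested genes of 9 lists in depleted and hepatectomised livers against control, 1 circle per gene, filled where the edgeR adjusted p is under 0.05, with the list median as a bar. The antagonist list spreads to both sides in depleted livers, with 5 genes called higher and 5 lower.

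The feedback gene Smad6, at chr9:63953076-64022059, had the smallest adjusted p of the 10 genes. Control livers were at 4.21, 6, 6.94, 5.57, 6.13 and 3.99 CPM, and depleted livers at 1.95, 1.95, 2.01 and 2.12 CPM. All 4 depleted livers lay below every control and within a narrow range of each other. The log2 fold change was -1.52 ± 0.21 (SE; edgeR adjusted p = 0.000187), and the call held in all 22 alternative fits (-1.70 to -1.41).

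Smad7 and Id1 overlapped between the groups. Smad7, the second inhibitory SMAD gene, was at 15.4, 13.3, 13.4, 9.08, 9.71 and 11.5 CPM in control livers and at 4.82, 6.81, 9.59 and 10 CPM in depleted livers. The fitted difference, -0.62 ± 0.28 (SE; edgeR adjusted p = 0.11), did not pass the test. Id1, at chr2:152736251-152737410, encodes an inhibitor of basic helix-loop-helix factors. It was at 5.95, 6.03, 6.37, 10.8, 3.74 and 4.26 CPM in control livers and at 1.69, 6.83, 7.11 and 6.17 CPM in depleted livers. Depleted replicate 1 was low and the other 3 lay within the control range, and the fitted difference of -0.23 ± 0.43 (SE; edgeR adjusted p = 0.721) became 0.07 without that liver.

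Of further BMP target genes, 9 were tested, 4 were called lower and none higher (median -0.86). Among all genes 15.0% were called lower. The largest of the 4 differences were those of Heyl (-5.61 ± 0.74, SE; edgeR adjusted p = 0.000112), Tmem100 (-3.82 ± 1.04) and Hey2 (-2.83 ± 0.71). Tmem100 and Hey2 were low already in control livers, with means of 0.342 and 0.304 CPM (6 to 19 and 9 to 17 counts per liver). Without depleted replicate 4, Heyl moved to -7.28 and Tmem100 to -5.27. The Tmem100 call was lost in females only (-3.31; adjusted p = 0.0529), and that of Hey2 in females of all groups (-1.94; 0.0886). Heyl is also a known gene of pericytes, and Tmem100 a target of BMP9 and ALK1 in endothelium. The hepatocyte-expressed targets Id2 (-0.09 ± 0.18), Id3 (-0.43 ± 0.35) and Atoh8 (-0.46 ± 0.30) did not pass the test.

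The main hepcidin gene Hamp was lower in every depleted liver than in any control, yet did not pass the genome-wide test. Control livers were at 756, 946, 1031, 766, 762 and 1076 CPM. Depleted livers were at 120, 378, 630 and 459 CPM. The ranges did not overlap, and the control mean was 2.24 times the depleted mean (890 ± 147 CPM, SD, n = 6, against 397 ± 212 CPM, SD, n = 4). The log2 fold change was -1.18 ± 0.47 (SE; edgeR adjusted p = 0.073). Hamp was called lower in 6 of 22 alternative fits, among them DESeq2 (-1.16; adjusted p = 0.0301), the fit without depleted replicate 3 (-1.77; adjusted p = 0.037), and those without hepatectomy replicate 1 (-1.15; 0.0465) or 3 (-1.12; 0.0276). The direction was the same in all 22.

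Hamp2, the second mouse hepcidin gene, was called lower in the depleted livers. Male control livers were at 8.14, 8.72 and 7.17 CPM, and female control livers at 385, 61.3 and 212 CPM. In the depleted livers, the 3 females were at 7.15, 9.18 and 8.67 CPM and the male at 2.03 CPM. The depleted females lay near the male controls and below all female controls. With sex in the model the log2 fold change was -3.72 ± 0.83 (SE; edgeR adjusted p = 0.00451). Among females alone it was -4.71 (adjusted p = 0.00269), and without the sex term -4.08 (0.092). A test of whether the depletion effect differed between the sexes, which rests on 1 depleted male, gave 2.74 ± 1.23 for males minus females (SE; edgeR adjusted p = 1).

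Between the sexes, Hamp2 was lower in male control livers by 4.77 on the log2 scale, with no overlap (8.01 ± 0.784 CPM against 219 ± 162 CPM, SD, n = 3 each). The edgeR adjusted p over the 6 controls was 0.056, just above the threshold, and no gene of the 10 was called there (0.738% of all genes were). DESeq2 called Hamp2 (adjusted p = 2.09e-09). It was also called without control replicate 4, the lowest of the 3 females (-5.22; edgeR adjusted p = 9.6e-05), and in the sex term over all 13 livers (-4.30; 0.0115). Hamp was at 926 ± 161 CPM in males and 853 ± 154 CPM in females (0.12 ± 0.20, SE; edgeR adjusted p = 0.784). Bmp2, Bmp10 and Gdf2 had lower means in male than in female controls and were not called (edgeR adjusted p = 0.378, 0.408 and 0.425). Control replicate 6, the library low in endothelial and stellate markers, is among the males.

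**Figure D4:**
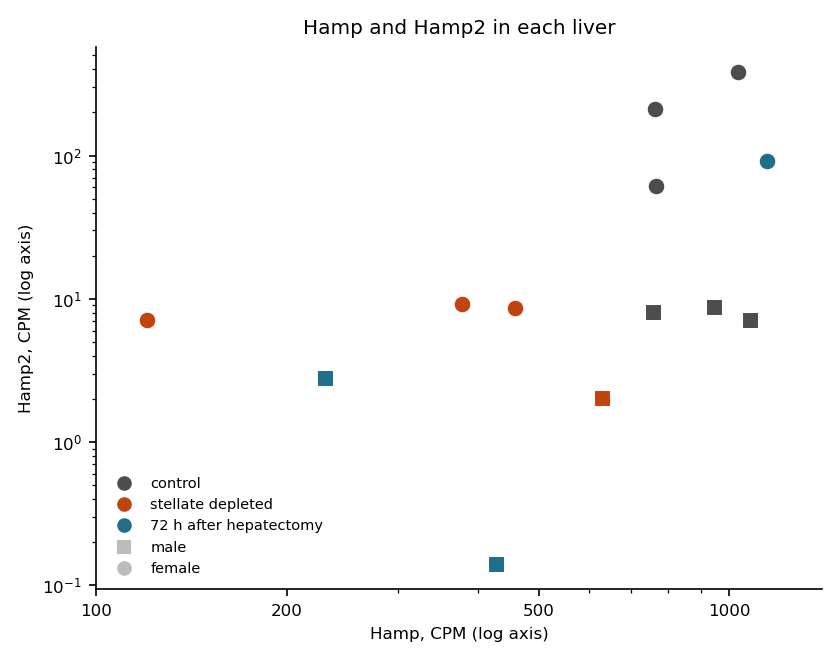
Hamp against Hamp2 in each of the 13 livers, in TMM-scaled CPM on logarithmic axes (colours for group, circles female, squares male). The 3 female controls and the hepatectomised female lie between 61.3 and 385 CPM of Hamp2, while the 3 depleted females lie between 7.15 and 9.18 CPM, beside the male controls.

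As a share of Hamp and Hamp2 counts together, Hamp2 made up 27.2%, 7.41% and 21.8% in female controls and 1.07%, 0.913% and 0.662% in male controls. The depleted females had 5.61%, 2.37% and 1.85%, all below the lowest female control, and the depleted male had 0.321%. Over all livers the means were 2.54 ± 2.22% and 9.84 ± 11.8% (SD, n = 4 and 6; exact two-sided permutation p = 0.305). In females alone they were 3.28 ± 2.03% and 18.8 ± 10.2% (SD, n = 3 each), with an exact permutation p of 0.1, the smallest that 3 against 3 can give. How reads shared by the 2 genes were assigned is not given in the sources used here, so their split carries an uncertainty. Their longest transcripts were 93% identical over the alignment, 16.6% of the 50-base windows of Hamp also stood in Hamp2, and no 100-base window did. A GENCODE gene on the opposite strand, Gm44662, overlaps exons of both, and another, Gm26903, overlaps Bmp5, with the strand setting of the counting likewise not given.

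Of 10 tested genes that sense iron, 2 were called higher and 3 lower in the depleted livers (median -0.02). The shares over all genes were 18.9% and 15.0%. Tfrc, the transferrin receptor gene, rose by 1.34 ± 0.36 (SE; edgeR adjusted p = 0.0118), and Trf, the gene of transferrin, by 0.69 ± 0.18. Tmprss6, whose protease limits hepcidin by cleaving hemojuvelin, was lower at -0.68 ± 0.14 (adjusted p = 0.00213), as were the iron regulatory protein genes Ireb2 (-0.83 ± 0.17) and Aco1 (-0.50 ± 0.12). In females only, Tmprss6 (-0.62; adjusted p = 0.0525) and Aco1 (-0.47; 0.113) were not called. Hfe (-0.23 ± 0.14) and Tfr2 (0.13 ± 0.13), genes of the transferrin-sensing complex, were not called, although Hfe was called without depleted replicate 4 (-0.38). Erythroid markers moved unevenly beside Tfrc: 4 of 10 were called higher, against 18.9% of all genes. Their sum was 125 to 381 CPM in control and 75.3 to 664 CPM in depleted livers. Their part in the Tfrc difference was not tested.

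Of 16 genes for iron transport and storage, 6 were called higher and 2 lower in the depleted livers (median 0.17). The shares over all genes were 18.9% and 15.0%. Slc40a1, which encodes ferroportin, was at 195 ± 48.5 CPM in control (SD, n = 6) and 403 ± 41.9 CPM in depleted livers (SD, n = 4), without overlap. It rose by 1.00 ± 0.26 on the log2 scale (SE; edgeR adjusted p = 0.00955). Kupffer cells also express this gene, and the sum of 10 Kupffer markers was 79.3 to 624 CPM in control and 1046 to 2132 CPM in depleted livers, of which 6 markers were called higher. Clec4f, the defining marker of resident Kupffer cells, was instead at 0.236, 2.17, 3.44 and 69.5 CPM in the depleted livers and at 20.3 to 165 CPM in control livers. The part of Kupffer cells in the Slc40a1 difference was not tested. The largest rises were those of Hp (2.33 ± 0.14), Hpx (1.94 ± 0.21) and Cp (1.91 ± 0.21), genes for plasma proteins that bind hemoglobin, bind heme and oxidise iron. Lower were Slc39a8 (-0.78 ± 0.14) and Heph (-1.54 ± 0.52), and the Heph call was lost without any 1 of control replicates 1 to 5 or depleted replicate 3 (-1.57 to -1.42) and in females only (-1.60).

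Of 13 tested genes for inflammatory inputs to hepcidin, 7 were called higher and 1 lower in the depleted livers (median 0.81, with all genes at -0.03). Among all genes 18.9% were called higher and 15.0% lower. Stat3, the factor that carries the interleukin 6 signal to Hamp, rose by 0.81 ± 0.16 (SE; edgeR adjusted p = 0.00199), and its feedback inhibitor gene Socs3 by 2.35 ± 0.43. Osm, a cytokine gene of the interleukin 6 family, had no read in any control liver and 0.6, 0.314, 0.699 and 1.07 CPM in the depleted livers, at least 53.8-fold higher against 3 counts over the control group. Il1b rose by 2.62 ± 0.46, and Cebpa, a hepatocyte factor that also activates Hamp, fell by 1.00 on the log2 scale. Cebpa was not called in females only (-0.69; adjusted p = 0.0671). Il6 itself had at most 14 counts in any liver and was not tested. All 10 neutrophil and monocyte markers were called higher in the same livers, and their part in these differences was not tested. Of 5 tested erythropoietic inputs 2 were called higher: Erfe, described above, and Fgl1 (2.43 ± 0.24), a hepatocyte gene known to restrain hepcidin.

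At 72 h after hepatectomy, Smad6 was the single gene of the 10 called against control, and it was lower. Over all genes 8.42% were called, 6.06% higher and 2.36% lower. The median of the 10 estimates was -0.63, against -0.02 over all genes. Smad6 was at 2.47, 1.88 and 3.84 CPM, below every control, and differed by -0.96 ± 0.23 (SE; edgeR adjusted p = 0.0231). This call was lost with a replicate block (-1.07; adjusted p = 0.0672) and without control replicate 2 (-0.86; 0.0586), hepatectomy replicate 1 (-0.97; 0.0602) or hepatectomy replicate 2 (-0.81; 0.104).

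None of the 3 ligand genes that fell with stellate depletion was called after hepatectomy. Gdf2 was at 31.1, 25.5 and 34.3 CPM (0.47 ± 0.75, SE; edgeR adjusted p = 0.756), and Bmp5 at 9.96, 7.86 and 13.3 CPM (-0.35 ± 0.71; 0.813). Bmp10 was at 0.999, 0.393 and 0.648 CPM (-0.68 ± 0.65; 0.572). All 3 overlapped the control range, and 0 of 15 stellate markers were called in this comparison. Bmp2 was at 18.2, 6.2 and 12.2 CPM (-0.43 ± 0.42; 0.572) and Bmp6 at 3.97, 1.32 and 1.82 CPM (-0.69 ± 0.59; 0.505), both lowest in replicate 2. With each library left out, the differences ran from 0.27 to 0.77 for Gdf2, -0.47 to -0.07 for Bmp5, -1.29 to -0.19 for Bmp10, -0.96 to -0.15 for Bmp2 and -1.34 to -0.37 for Bmp6.

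The hepcidin and target genes differed widely among the 3 hepatectomised livers, and the female stood apart from the males. Hamp was at 230 and 427 CPM in the males and at 1146 CPM in the female, below and above all controls (-0.58 ± 0.51, SE; edgeR adjusted p = 0.523). Hamp2 was at 2.79 and 0.14 CPM in the males and 91.2 CPM in the female (-1.86 ± 0.83; 0.195). Its share of both hepcidin genes was 1.2% and 0.0328% in the males and 7.38% in the female (mean 2.87 ± 3.95%, SD, n = 3; exact permutation p = 0.31 against control). Smad7 was at 5.23, 4.07 and 9.43 CPM, with both males below all controls (-0.95 ± 0.31; 0.081), and it was called by DESeq2 (adjusted p = 0.0344), with library size scaling (-1.16; 0.0315) and without replicate 3 (-1.53; 0.013). Id1 was at 8.32, 6.79 and 21.1 CPM (0.96 ± 0.45; 0.215). Without replicate 3, Hamp moved to -1.65, Hamp2 to -3.01 and Id1 to 0.32, and without replicate 1 Hamp moved to -0.15. None of these values was called. With 1 female the difference between the sexes rests on 1 liver, and in the test of the hepatectomy effect between sexes none of the 10 genes passed (Hamp -1.92 ± 0.74 and Smad7 -1.34 ± 0.49 for males minus females, SE; edgeR adjusted p = 0.679 for both).

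Of 84 tested genes in the 9 lists of the pathway and of iron regulation, 16 were called higher and 3 lower after hepatectomy, where over all genes 6.06% were called higher and 2.36% lower. In the depleted livers 23 were called higher and 21 lower against the same controls, with 18.9% and 15.0% over all genes. No other ligand gene (5 tested) and no receptor gene (11 tested) was called, and Acvrl1 was at -0.30 ± 0.39. The values of Bmp4 (0.12 ± 0.30), Bmpr1a (0.14 ± 0.16), Acvr1 (-0.16 ± 0.18), Bmpr2 (-0.41 ± 0.21), Eng (-0.45 ± 0.38) and Hjv (0.24 ± 0.26) did not pass the test. Smad1 was at 0.64 ± 0.24, Smad5 at -0.40 ± 0.13 and Smad4 at -0.18 ± 0.15, of which Smad1 was called without hepatectomy replicate 1 (0.95) and Smad5 without control replicate 6 (-0.48). The targets Id2 (-0.54 ± 0.20), Id3 (0.58 ± 0.37) and Atoh8 (-0.09 ± 0.32) were not called. Smad9 was the one SMAD gene called, and it is also counted among the targets (-1.57 ± 0.36, SE; edgeR adjusted p = 0.0196). It lost its call without hepatectomy replicate 1 (-1.46) or 2 (-1.39). Of 16 antagonist genes, 4 were called higher, Chrdl2 (3.56 ± 0.98), Bmper (2.94 ± 0.50), Fst (2.12 ± 0.46) and Twsg1 (0.44 ± 0.11), which is also counted among the erythropoietic inputs, and 1 lower, Smurf1 (-0.60 ± 0.14). Bmper (2.62; adjusted p = 0.0578), Chrdl2 (3.19; 0.124) and Twsg1 (0.47; 0.0934) were not called with the replicate block. Chrdl2 also lost its call without any 1 of the 6 controls and without hepatectomy replicate 1 or 2 (3.20 to 3.81). It had 0 to 2 counts in control livers and 18, 23 and 1 counts in hepatectomy replicates 1 to 3. Fst was not called without hepatectomy replicate 2 (1.70), Twsg1 without control replicate 1 or 3 or hepatectomy replicate 1 or 2 (0.33 to 0.46), and Smurf1 without control replicate 1 or hepatectomy replicate 2 or 3 (-0.60 to -0.54).

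After hepatectomy, of 16 iron transport and storage genes 5 were called higher and none lower, led by Hp (2.64 ± 0.14, SE; edgeR adjusted p = 2.24e-06), Hpx (2.36 ± 0.22) and Hmox1 (1.56 ± 0.25), the heme oxygenase gene. Slc40a1 was at -0.75 ± 0.29 and was called lower without hepatectomy replicate 1 (-1.25). Of 10 iron-sensing genes Trf alone was called (0.94 ± 0.19), and not without hepatectomy replicate 3 (0.84). Hfe was at 0.23 ± 0.16, Tfrc at 0.42 ± 0.39 and Tfr2 at 0.44 ± 0.13. Of these, Tfr2 was called higher without control replicate 6 (0.49) and by DESeq2 (0.44; adjusted p = 0.0133). Of 13 inflammatory inputs 5 were called higher and 1 lower. Socs3 rose by 4.29 ± 0.45, Cebpb by 2.18 ± 0.24, Osmr by 1.92 ± 0.52 and Stat3 by 1.17 ± 0.18, and Cebpa fell by 1.50. The other call was that of Il6ra, an interleukin 6 receptor gene named after its values were seen (63.5 ± 24.8 CPM in control and 146 ± 52.6 CPM in hepatectomised livers, SD, n = 6 and 3; edgeR adjusted p = 0.043). The Osmr call was lost in 14 of 21 alternative fits. Among these were the replicate block (1.30; adjusted p = 0.233) and 11 fits that each left out 1 liver: any of the 6 controls, depleted replicate 1, 2 or 3, or hepatectomy replicate 2 or 3 (0.90 to 2.18, lowest without hepatectomy replicate 2). Fgl1 rose by 3.33 ± 0.26. In females of all groups, with 1 hepatectomised liver, the calls of Stat3, Cebpa, Hmox1 and Trf were lost (edgeR adjusted p = 0.163, 0.255, 0.179 and 0.182), and those of Hp, Hpx, Socs3, Cebpb and Fgl1 held.

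Set directly against hepatectomised livers, depleted livers were lower in 3 of the 10 genes, where 23.4% of all genes were called. These were Bmp5 (-6.33 ± 0.98, SE; edgeR adjusted p = 0.000988), Gdf2 (-5.58 ± 1.01; 0.00231) and Bmp10 (at least 43.9-fold lower; 0.00126). Smad6 (-0.56 ± 0.25; 0.12), Hamp (-0.60 ± 0.53; 0.451), Hamp2 (-1.86 ± 0.86; 0.143), Id1 (-1.19 ± 0.50; 0.105), Bmp2 (0.17 ± 0.45; 0.827), Bmp6 (0.27 ± 0.64; 0.797) and Smad7 (0.33 ± 0.33; 0.506) did not pass the test. Hamp2 was called lower without depleted replicate 3 (-3.00; adjusted p = 0.0334) or hepatectomy replicate 2 (-2.40; 0.0454). In females of all groups, with 1 hepatectomised liver, Hamp2 was at -3.47. Without hepatectomy replicate 3 it was at -0.75 (0.672), and Id1 at -0.52, Hamp at 0.53 and Smad7 at 0.98 were not called either. Acvrl1 was higher in the depleted livers by 3.02 ± 0.45 (edgeR adjusted p = 0.000688), and Slc40a1 by 1.76 ± 0.34 (0.00286).

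**Figure D5:**
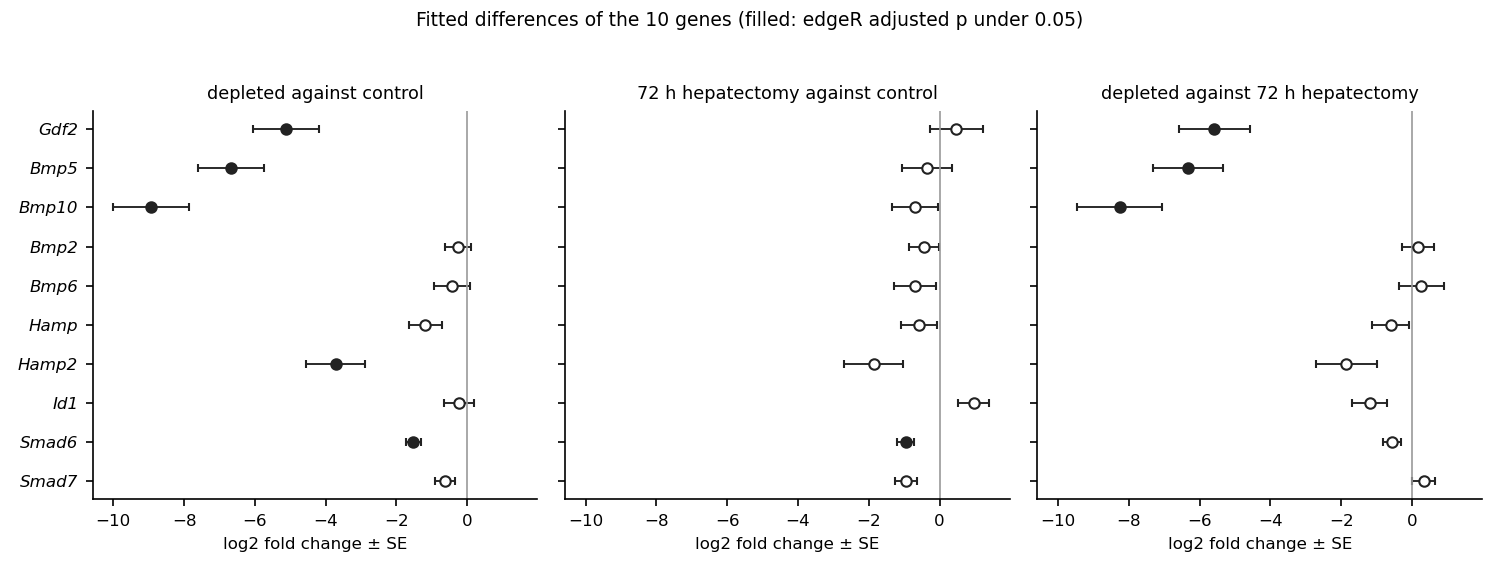
Log2 fold changes with SE of the 10 genes in the 3 comparisons, filled where the edgeR adjusted p is under 0.05. Gdf2, Bmp5 and Bmp10 lie far below 0 in both comparisons of the depleted livers, where the Bmp10 position is a fitted value from a group with no reads, and near 0 after hepatectomy.

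Over the 13 livers, the genes whose log2 levels tracked each of the 10 most closely differed between ligands. These correlations run across livers that share the group differences, among 10769 genes, and are given as a description. Gdf2 was most like Dcn (Pearson r = 1.00), Ddr2 (0.99) and Lhfp (0.99), and Bmp5 like Colec10, Lhfp and Ntn1 (0.99 each). Dcn and Colec10 are stellate markers of the list used here. Bmp10 was most like Pam (0.98), Disp2 and Abi3bp (0.96 each). Bmp2 was most like Calcrl (0.99), Tek and She (0.96 each), of which Tek, the receptor gene of the angiopoietins, is on the endothelial list. Bmp6 was most like Nek9 (0.96), Btbd7 and Col13a1 (0.95 each). Smad6 was most like C2cd2 (0.96), Dsp and Magix (0.94 each), and Smad7 like Gsta2 (0.89), Thap11 and Snx21 (0.86 each). Hamp was most like Decr2 (0.86), Gstm6 and Cyp4f15 (0.85 each), and Hamp2 like Maob (0.90), Cuedc1 and Mpc1 (0.89 each). Id1 had the loosest partners of the 10 genes, Itpkc (0.76), Ablim3 (0.75) and Plin5 (0.74).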

How the data were processed

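The authors deposited raw read counts per gene (22048 genes, 13 libraries). Per the submitters' processing notes, STAR 2.7.1a, SAMtools 1.15.1, featureCounts 1.6.4 and the build mm10 were used. Per the labels' protocols, 500 ng of TRIzol RNA entered each stranded library. Of the gene IDs, 21818 matched GENCODE release M21 and took its symbols.

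Counts were tested with edgeR 4.0.16 in R 4.3.3 (filterByExpr, TMM, glmQLFit with robust estimation, group and sex over 13 libraries, common biological variation 31.4%, Benjamini-Hochberg threshold 0.05), tested on simulated data first. Male and female controls were compared in 13005 genes. Shares of Hamp2 were compared by exact two-sided permutation. Floors of 3 counts cover counting error only. Library pairs of a group differed by a median chi-square of at least 4.6 per gene, against 0.45 for a repeat, so all counted as replicates.

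The 10 genes and the lists were chosen with earlier results of these data known. From each list, up to 3 genes called in each direction were named by largest change, with 21 set genes named whatever their result. For the 3 hepatectomy and control pairs of one number, deviations correlated at 0.23, 0.11 and 0.52, so the replicate block is given beside those results. Each pair was of one sex, and with sex removed the values were 0.08, -0.19 and -0.05. Depleted and control livers of one number showed no such pairing before sex was removed (-0.34 to 0.07). With sex removed, their values were 0.07, -0.10, 0.42 and 0.08. Alternatives were other scaling, DESeq2 1.42.0, no filter, no sex term, the replicate block, the 2 groups alone, females alone and each library left out.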

Additional observations from a re-analysis of the deposited data

Results flagged for a closer look

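Of 38 group values tested for a liver far from the rest, 6 had one, where chance gives about 1 in 20 (1.9 of 38). Id1 was highest in control replicate 4, at 10.8 CPM against 3.74 to 6.37 CPM in the other controls, a gap of 0.63 of the group's range. Depleted replicate 4 was far from the other depleted livers in Bmp5 (0.668 CPM against 0 in each, 1.00 of the range), in Gdf2 (3.39 against 0.0175 to 0.336 CPM, 0.91 of the range), in the summed stellate markers (79.8 against 12 to 15.9 CPM, 0.94 of the range) and, at the low end, in the summed endothelial markers (646 against 973 to 1041 CPM, 0.83 of the range). Control replicate 6 was lowest in the summed Kupffer markers, at 79.3 against 436 to 624 CPM (0.66 of the range).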

How the results depend on the processing

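Each of the 5 calls of the depleted livers among the 10 genes held in all 22 alternatives, except Hamp2 without the sex term. The count of these genes ran from 4 to 6. The genes called over the whole table numbered 2695 in females only, 2726 in females of all groups (an alternative chosen after seeing the data) and 2960 to 4928 with each library left out, lowest without depleted replicate 3. With the replicate block 3887 were called, of which 3677 were among the 4692. With that block Slc40a1 (0.92; adjusted p = 0.0526), Tmem100 (-4.05; 0.0597), Rgmb (0.70; 0.0806) and Erfe (3.78; 0.247) were not called, while Hamp (-1.32; 0.0318) and Eng (-0.66; 0.0281) were.

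After hepatectomy, 2192 genes were called with library size alone, 632 with the replicate block (549 of the 1164), 1913 with DESeq2, 90 in females of all groups and 483 to 1458 with each library left out, including 483 without hepatectomy replicate 2, 692 without control replicate 1 and 742 without control replicate 2. The counts among the 10 genes were 2, 0, 2, 0 and 0 to 2. Library size alone moved the median of all genes to -0.24, with 28.6% of calls higher against 72%, to 0.08 with 66.2% against 55.7% higher in depleted against control, and to 0.27 with 83.6% against 56.8% in depleted against hepatectomised livers. Between depleted and hepatectomised livers, 2105 genes were called in the 2 groups alone, 1263 in females of all groups and 1709 to 3850 with each library left out, lowest without depleted replicate 3. Between the sexes, DESeq2 called 459 genes, and leaving out a control gave 32 to 200: 32, 200, 47, 50 and 63 without replicates 1, 2, 3, 5 and 6. In that comparison 1 of the 10 genes, Hamp2, was called with library size alone, with DESeq2 and in the sex term of all 13 libraries, and 0 to 1 with a control left out.

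Of the single values, 2315 kept direction and side of the threshold, 122 lost and 30 gained a call, and 24 changed sign, none of which had been called. With library size alone Smad5, Slc40a1, Bmpr2, Id2 and Tmprss6 were called lower after hepatectomy and Twsg1 was not called. With the same scaling Id2 was at 0.02 in depleted livers, and Bmp4 at -0.08 and Bmpr1a at -0.07 after hepatectomy. In females of all groups, with 1 hepatectomised liver, Smad6 was at -0.68, Smad9 at -0.76 and Smurf1 at -0.54 after hepatectomy. Bmper was at 1.85, Chrdl2 at 1.40, Fst at 1.26, Twsg1 at 0.25 and Osmr at 1.36 in the same fit. There, hepatectomy values were 0.44 for Hamp, 0.38 for Atoh8, -0.38 for Bmp4, -0.22 for Bmpr1a, -0.20 for Hjv and -0.45 for Tfrc, and Smad7 was at -0.41 in depleted against hepatectomised livers. In the sex term of all 13 libraries Hamp was at -0.09. With libraries left out, Id1 ran from -0.70 to 0.07 in depleted livers. After hepatectomy Acvr1 ran from -0.38 to 0.05, Atoh8 from -0.44 to 0.22, Bmp4 from -0.29 to 0.39 and Tfrc from -0.02 to 0.86. In depleted against hepatectomised livers Bmp2 ran from -0.11 to 0.67, Bmp6 from -0.08 to 0.88 and Hamp from -1.12 to 0.53. Between the sexes Id1 ran from -0.67 to 0.10 and Hamp from -0.00 to 0.27.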
